A study of Mus musculus with 4 samples.

Results

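The endothelial Tie pathway was described through 5 genes of the 24873 listed in the table. They are *Tek*, which encodes the receptor Tie2, *Tie1*, *Ptprb*, which encodes the phosphatase VE-PTP, and the angiopoietins *Angpt1* and *Angpt2*. The members were taken by gene symbol, and each of the 5 symbols had a row. RNA-Seq of mouse cerebral cells gave 2 control and 2 tamoxifen libraries. All mice of both groups carried the genotype labelled Cdh5cre;Mgpflox/flox, a tamoxifen-activated Cre under the VE-cadherin promoter together with floxed *Mgp*. The tamoxifen group was injected daily for 5 days from 10 weeks of age with 75 mg/kg, and the control group was given no tamoxifen, so that the drug itself and the loss of *Mgp* cannot be told apart. Cells were isolated on day 9, with 3 mice pooled into each library. The labels call the cells tdTomato+ brain cells, whereas the study's methods sort them as CD31+CD45-.

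In the Tie pathway, ANGPT1 released by cells around the vessel activates Tie2 on endothelium and keeps vessels quiescent and tight. ANGPT2, made and stored by endothelial cells themselves, acts on the same receptor and often opposes ANGPT1. TIE1 binds no angiopoietin with high affinity but pairs with Tie2, and VE-PTP removes phosphate from Tie2, while active Tie2 signals through AKT and keeps FOXO1 out of the nucleus. In brain endothelium the pathway is known for its part in barrier function and in vascular malformation.

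Reads on genes numbered 37475154 and 41025014 in control libraries 1 and 2, and 35387438 and 49799321 in tamoxifen libraries 1 and 2. Values are normalized counts, read counts divided by 1 factor for each library. A single read was worth 1.37, 1.25, 1.08 and 0.719 normalized counts in these libraries, in the same order, which limits the precision of low genes only. *Mgp*, the gene to be deleted, had 1094 and 1352 normalized counts in the controls against 945 and 909 after tamoxifen. Both tamoxifen values lay below both control values. The log2 fold change was -0.39 (SE 0.18), which did not pass the test (limma, adjusted p = 0.0986), so the level of *Mgp* gives little check of the labels. How much of the message is left when the floxed part is lost is not known from these values.

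The endothelial label was checked against 15 marker genes. Their summed level was 1519474 and 1512082 normalized counts in the controls against 256361 and 127401 after tamoxifen, and *Flt1* was the most abundant. All 15 of 15 passed the test as lower with tamoxifen, against 16% of all genes tested, with a median log2 fold change of -2.95. None was at or below 3 reads in both libraries of a group. Endothelial RNA was therefore present in each library. Tamoxifen library 2 stood apart from tamoxifen library 1, with the lower endothelial sum. Among all genes, the most abundant was *Spock2* in control library 1 and *Bsg* in control library 2. In both tamoxifen libraries it was *Rn18s-rs5*, a gene named for ribosomal RNA. A difference in RNA quality between the groups was not tested. In bulk RNA, fewer cells of a type and less RNA per cell cannot be told apart, and this holds for each value that follows.

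All 5 members passed the filter, a mean level of 10 normalized counts or more, and were tested. A gene was called at an adjusted p under 0.05 with an absolute log2 fold change over 1. All 5 of 5 were called, 4 lower and 1 higher, where 44.7% of the 20485 genes tested were called, 28.6% higher and 16% lower. The receptors, the phosphatase and *Angpt2* were lower with tamoxifen, whereas *Angpt1* was higher. The 2 groups did not overlap for any of the 5 members. Of all genes tested, 43.1% had both tamoxifen values above both control values and 39.2% had both below, 82.3% together. Fold changes are on the scale of log2(normalized count + 1).

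*Tek* had 60505 and 56341 normalized counts in control libraries 1 and 2, and 9070 and 4316 in tamoxifen libraries 1 and 2. The control libraries were close to each other, and both tamoxifen libraries were far lower, with library 2 the lowest. The group means were 58423 ± 2945 and 6693 ± 3362 (SD, n = 2 each), or 8.73-fold lower with tamoxifen. The log2 fold change was -3.22 (SE 0.33; limma, adjusted p = 0.000153). *Tek* lies on the forward strand at chr4:94627291-94763224 of GRCm39, with 6004 bases of merged exons.

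*Tie1*, the orphan partner of Tie2, had 47935 and 49099 normalized counts in the controls against 9091 and 4515 after tamoxifen. The tamoxifen libraries differed from each other in the same direction as for *Tek*, and neither came near a control value. The means were 48517 ± 823 and 6803 ± 3235 (SD, n = 2 each), 7.13-fold lower with tamoxifen. The log2 fold change was -2.92 (SE 0.32; limma, adjusted p = 0.000186). *Tie1* lies on the reverse strand of the same chromosome, at chr4:118328385-118347261, with 5003 bases of merged exons.

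*Ptprb*, the endothelial receptor phosphatase that acts on Tie2 and on VE-cadherin, had 225585 and 201409 normalized counts in the controls against 36240 and 16765 after tamoxifen. It was lower in both tamoxifen libraries and lowest in library 2, as were the receptors. The means were 213497 ± 17095 and 26503 ± 13771 (SD, n = 2 each), 8.06-fold lower. The log2 fold change was -3.11 (SE 0.41; limma, adjusted p = 0.000471). *Ptprb* spans chr10:116111428-116225440 on the forward strand and has 14336 bases of merged exons.

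*Angpt1*, the activating ligand, was the member that was higher with tamoxifen. Its normalized counts were 26.0 and 40.1 in the controls, from 19 and 32 reads, and 431 and 382 after tamoxifen, from 398 and 532 reads. The control values were low but above the 3 reads taken as the floor, and the tamoxifen libraries were close to each other. The means were 33.0 ± 9.92 and 407 ± 34.6 (SD, n = 2 each), 12.3-fold higher with tamoxifen. The log2 fold change was 3.61 (SE 0.40; limma, adjusted p = 0.000201). The call rested on having both tamoxifen libraries. Without tamoxifen library 1 the log2 fold change was 3.53 with a limma adjusted p of 0.0537, and without tamoxifen library 2 it was 3.70 with the same adjusted p of 0.0537. *Angpt1* lies at chr15:42288058-42540417 on the reverse strand, with 7184 bases of merged exons.

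*Angpt2*, the ligand stored by endothelial cells, had 6801 and 6926 normalized counts in the controls against 1216 and 889 after tamoxifen. Both tamoxifen libraries were lower, and they lay nearer to each other than for the receptors. The means were 6864 ± 88.8 and 1053 ± 231 (SD, n = 2 each), 6.52-fold lower. The log2 fold change was -2.72 (SE 0.19; limma, adjusted p = 3.1e-05). *Angpt2* lies at chr8:18739202-18791603 on the reverse strand, within *Mcph1* of the opposite strand, and 3387 bases of its 4792 bases of merged exons overlap exons of that gene. *Mcph1*, a gene of DNA damage control and brain growth, had 700, 527, 1739 and 1412 normalized counts in control libraries 1 and 2 and tamoxifen libraries 1 and 2. It was called higher, opposite to *Angpt2*, with a log2 fold change of 1.37. The library kit keeps the strand, but the setting used for counting was not stated. Without it, reads from the overlapping bases of *Angpt2* and *Mcph1* cannot be told apart. The same holds for the overlapping bases of *Angpt1*, *Tie1* and *Ptprb*, whose exons overlap lncRNA exons of the opposite strand. The overlap is 815 of 7184 bases for *Angpt1* (*Gm17473*), 238 of 5003 for *Tie1* (*Gm70435*) and 165 of 14336 for *Ptprb* (*Gm66901*). None of these lncRNA genes was listed.

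**Figure D1:**
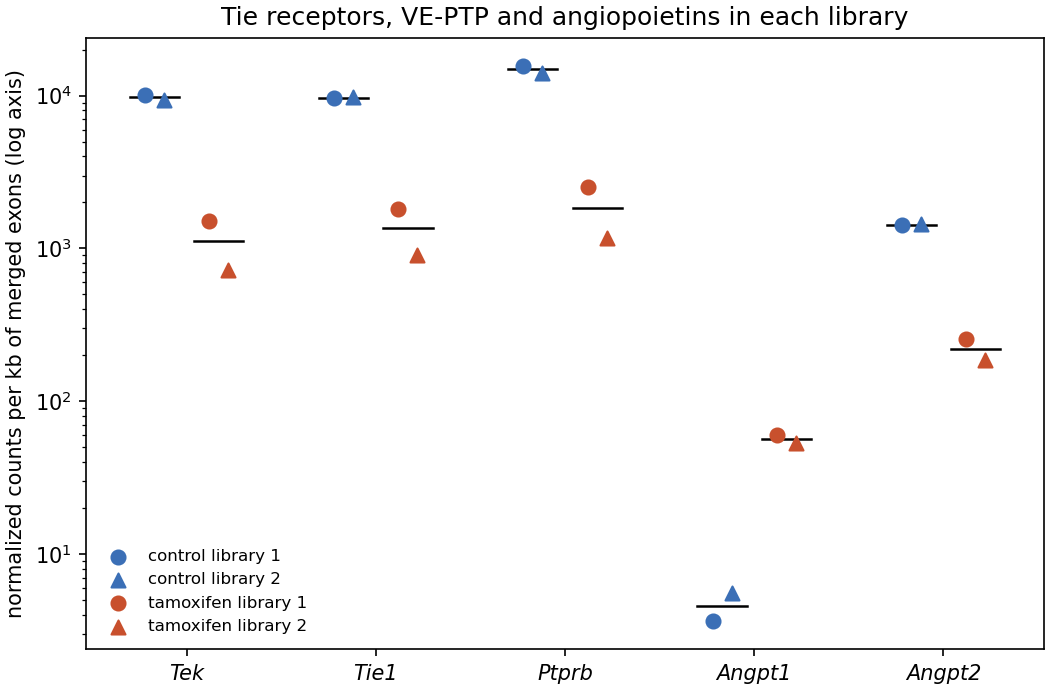
Normalized counts per kilobase of merged exons (vertical log axis) of *Tek*, *Tie1*, *Ptprb*, *Angpt1* and *Angpt2* in each library. Blue marks control and red tamoxifen, circles are library 1, triangles library 2, and black bars are group means. *Angpt1* was higher and the other 4 genes were lower after tamoxifen, with no overlap between groups.

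Levels were compared between the members per kilobase of merged exons. In the control libraries, *Ptprb* was highest at 14892 ± 1192 normalized counts per kilobase (SD, n = 2). *Tek* followed at 9731 ± 490 and *Tie1* at 9698 ± 164, and this pair could not be ordered, since *Tek* had 10077 and 9384 and *Tie1* had 9581 and 9814 in the same libraries. *Angpt2* came next at 1432 ± 18.5. *Angpt1* was lowest at 4.599 ± 1.38, and apart from the receptor pair no ranges of neighbours overlapped. *Ptprb* was thus among the most abundant messages, with 53 and 60 of 20124 genes above it in control libraries 1 and 2, while 17009 and 16434 genes were above *Angpt1*.

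In the tamoxifen libraries the order per kilobase was *Ptprb* at 1849 ± 961, *Tie1* at 1360 ± 647, *Tek* at 1115 ± 560, *Angpt2* at 220 ± 48.2 and *Angpt1* at 56.6 ± 4.81 (SD, n = 2 each). The ranges of *Ptprb*, *Tie1* and *Tek* overlapped between libraries, since all 3 were lower in tamoxifen library 2, but their order was the same within each library. *Ptprb*, *Tie1* and *Tek* had 2528, 1817 and 1511 normalized counts per kilobase in tamoxifen library 1 and 1169, 903 and 719 in tamoxifen library 2. *Angpt2* still lay below each of them and above *Angpt1*. In the same tamoxifen libraries 365 and 842 of 20124 genes were above *Ptprb*, and 11794 and 12368 were above *Angpt1*.

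The balance of the ligand messages was different between the groups. The ratio of *Angpt2* to *Angpt1* was 261 and 173 in the controls against 2.82 and 2.33 after tamoxifen. Per kilobase it was 392 and 259, and then 4.23 and 3.49, so *Angpt2* stayed the more abundant ligand message in each library. The log2 ratio was 7.98 and 7.40 against 1.49 and 1.22, a difference of -6.33. The design of 2 against 2 allows no exact two-sided permutation p below 0.333, which is the value here, and the ratios are a description. For the antagonist and the receptor, the log2 ratio of *Angpt2* to *Tek* was -3.15 and -3.02 in the controls against -2.90 and -2.28 after tamoxifen.

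*Tek* and *Tie1* were lower by a similar factor. The ratio of *Tek* to *Tie1* was 1.26 and 1.15 in the controls against 0.998 and 0.956 after tamoxifen. *Tek* was therefore lower relative to its partner in both tamoxifen libraries, with a difference in log2 ratio of -0.30 that is larger than the spread between libraries (pooled SD 0.075). The ratio of *Ptprb* to *Tek* was 3.728 and 3.575 in the control libraries against 3.995 and 3.884 in the tamoxifen libraries. The ratio was thus slightly higher in both tamoxifen libraries, while both messages were several-fold lower.

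Each member was then set against the endothelial genes of its own library, as the log2 ratio to the median of the 15 endothelial markers. For *Tek* this ratio was -0.39 and -0.62 in the controls against -0.78 and -0.98 after tamoxifen, slightly lower with tamoxifen. For *Tie1* it was -0.72 and -0.81 against -0.78 and -0.91, with overlapping groups. The difference for *Tie1* was smaller than the spread between libraries (pooled SD 0.081). For *Ptprb* it was 1.51 and 1.22 against 1.22 and 0.98, where tamoxifen library 1 was just under control library 2. For *Angpt2* it was -3.54 and -3.64 against -3.68 and -3.25, again with overlapping groups. For *Angpt1* it was -11.5 and -11.0 against -5.17 and -4.47, and this member alone of the 5 parted widely from the endothelial genes. The group differences in log2 ratio were -0.38 for *Tek*, -0.08 for *Tie1*, -0.27 for *Ptprb*, 0.12 for *Angpt2* and 6.46 for *Angpt1*, and none can have an exact permutation p below 0.333. With 1 library left out, which was added after the data were seen, the difference for *Tie1* was -0.03 without control library 1, -0.12 without control library 2, -0.14 without tamoxifen library 1 and -0.0088 without tamoxifen library 2. That for *Ptprb* was -0.12, -0.41, -0.39 and -0.15 in the same order. That for *Angpt2* was 0.17, 0.07, 0.34 and -0.09, and so changed sign without tamoxifen library 2.

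**Figure D2:**
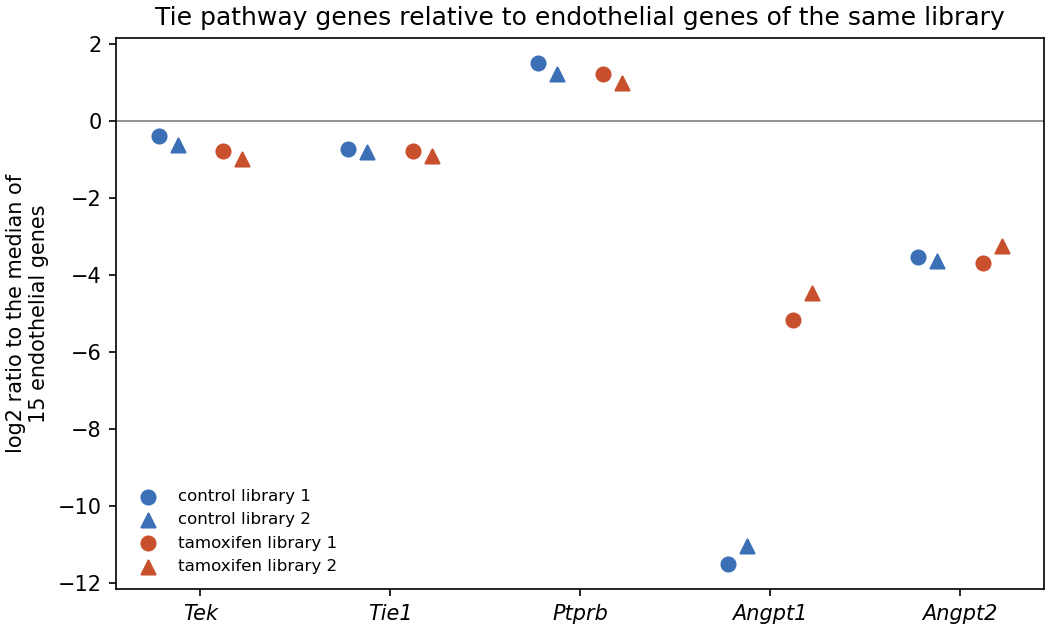
Log2 ratio of each member to the median of 15 endothelial marker genes in the same library (vertical axis). Blue marks control and red tamoxifen, circles are library 1 and triangles library 2. *Tek*, *Tie1*, *Ptprb* and *Angpt2* had group differences between -0.38 and 0.12, against 6.46 for *Angpt1*.

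The fold changes of the 4 lower members fell within the range of the 15 endothelial markers, which ran from -4.10 for the transporter *Slco1a4* to -2.09 for the lipid transporter *Mfsd2a*. On the log2 scale, 4 of the 15 markers had a more negative fold change than *Tek*, 5 than *Ptprb*, 8 than *Tie1* and 14 than *Angpt2*. This order depended on the scaling and on the libraries. With quantile normalization *Angpt2* had a log2 fold change of -2.65 against -1.68 for *Kdr*, and without tamoxifen library 2 one of -2.50 against -2.39 for *Kdr*, although *Kdr* was the more reduced with all libraries. The spread between the tamoxifen libraries was shared as well. *Tek*, *Tie1* and *Ptprb* were lower in tamoxifen library 2, as was the endothelial sum, and *Angpt2* less so. Scaling bears on these values, since the median log2 fold change of all genes tested was 0.05, but 0.52 with equal library totals and -0.23 with quantile normalization. Each of the 5 members kept its direction and its call under both scalings.

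Genes with the most similar pattern over the 4 libraries were sought among 13667 other genes whose mean was 100 normalized counts or more, by the Euclidean distance between centred log2 values. For *Tek* they were *Sp100* at a distance of 0.064, the tight junction gene *Ocln* at 0.089 and *Ptprb* at 0.121. For *Tie1* they were *Sox17*, a transcription factor of arterial endothelium, at 0.020, the chemokine gene *Cxcl12* at 0.024 and *Car4* at 0.066. *Ptprb* was closest to *Sp100* at 0.102, *Itm2a* at 0.106 and *Plpp6* at 0.108. *Angpt2* was closest to *Tmtc2* at 0.098, *Nos2* at 0.116 and *Usp43* at 0.118. *Angpt1* had other neighbours, the neurofilament gene *Nefh* at 0.057, the phosphatase gene *Ptpn3* at 0.059 and *Unc119* at 0.063. With 4 libraries in 2 groups, many genes with a fold change of like size are near to any member.

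Promoter stretches are shown for *Tek* and *Tie1* only. RefSeq promoter sequences (GRCm38.p6 table) were at hand for 2 of the 5 members, *Tek* and *Tie1*, and not for *Ptprb*, *Angpt1* and *Angpt2*. Each has 250 bases before and 50 bases after the start, and each matched 1 place in GRCm39, chr4:94627276-94627575 on the forward strand for *Tek* and chr4:118346997-118347296 on the reverse strand for *Tie1*. Of these 300 bases, 285 for *Tek* and 265 for *Tie1* lie in annotated exons of the gene, since GENCODE places the start of some transcripts further upstream. Both strands were searched for the ETS motifs CCGGAAG and CAGGAAG, the FOX motif TGTTTAC, the GATA motif AGATAA and the KLF motif CACCC. These letters occur in 8.86%, 13.3%, 3.65%, 11.2% and 57.5% of the 32851 promoters of the table. *Tek* held 1 GATA and 1 KLF match, *Tie1* held 3 KLF matches, and neither held the letters of the ETS or FOX motifs. The following 25-base stretches are written 5′ to 3′ on the strand of the gene, with the motif in capitals.
Tek, GATA, chr4:94627551-94627575: gcaggagcagaAGATAAgccttgga
Tek, KLF, chr4:94627350-94627374: atcccaaatgCACCCcagagaacag
Tie1, KLF, chr4:118347102-118347126: ttccaggccaCACCCatcccgggct
Tie1, KLF, chr4:118347044-118347068: caactcttccCACCCtctctccctg
Tie1, KLF, chr4:118347028-118347052: ctctccctgcCACCCctcctaccct
A match describes the letters and is not a binding site, and no binding was measured here.

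The next list of 9 genes held Tie ligands, genes of extracellular binding or shedding, and the junction gene *Esam*. Of these, 4 were called higher (44.4%) and 2 lower (22.2%), against 28.6% and 16% of all genes tested. The median log2 fold change was 0.88. *Svep1*, an extracellular matrix protein that binds TIE1, had 13.7 and 25.03 normalized counts in the controls against 884 and 753 after tamoxifen. Its log2 fold change of 5.38 (SE 0.42) was the largest of the list, and like *Angpt1* it was low in both control libraries. The integrin genes *Itgav*, *Itgb3* and *Itgb5*, whose products can bind angiopoietins, were higher by log2 fold changes of 1.362, 1.47 and 1.72. *Itga5* and *Itgb1* had log2 fold changes of -0.58 and -0.87 and were not called. *Adam17*, a protease that can shed receptors, had a log2 fold change of -1.40 and the junction gene *Esam*, also counted among the endothelial markers, one of -2.85. *Angpt4*, the remaining angiopoietin gene, had only 9.59, 5.01, 13.01 and 14.4 normalized counts in control libraries 1 and 2 and tamoxifen libraries 1 and 2, and was not called (log2 fold change 0.88; limma, adjusted p = 0.255). *Itgb5* lost its call without tamoxifen library 1, *Itgav* and *Itgb5* without tamoxifen library 2, which left 2 genes called higher, and *Adam17* with equal totals.

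Downstream of Tie2, 30 docking and signalling genes were tested, with a median log2 fold change of -0.63. Of these 30, 5 were called higher (16.7%) and 8 lower (26.7%), against 28.6% and 16% of all genes tested. *Dok1*, whose product is a docking protein that recruits a RAS pathway regulator, had 35.6 and 51.3 normalized counts in the controls against 606 and 486 after tamoxifen (log2 fold change 3.63), and *Dok2*, an adaptor that binds Tie2, had 60.3 and 51.3 against 302 and 225 (log2 fold change 2.21). The kinase gene *Pak1*, which acts in cell migration, was higher by 2.82. The adaptors *Grb14* and *Grb7* were lower, with log2 fold changes of -2.91 and -1.92, as was *Fgd5*, an exchange factor of endothelial cells, at -2.98. *Fgd5* had 31430 and 27202 normalized counts in the controls against 5124 and 2681 after tamoxifen, a pattern like that of the receptors. Of the AKT kinase genes, *Akt1* had 12652 and 15064 against 7662 and 6924 normalized counts and was not called (log2 fold change -0.92), and *Akt2* was higher by 1.06. *Tnip2*, which encodes an inhibitor of NF-κB bound by Tie2, had one of -1.33, *Nck1* one of -1.43, *Iqgap1* one of -1.11 and *Rap1a* one of -1.03, and *Pik3r2*, a regulatory subunit of the PI3 kinase, was higher by 1.01. The calls of *Nck1*, *Iqgap1*, *Rap1a* and *Tnip2* were lost with equal totals, those of *Iqgap1* and *Dok2* with quantile normalization, and that of *Pik3r2* with edgeR on recovered reads, with no change of direction. Leaving out control library 1 ended the calls of *Akt2*, *Pik3r2* and *Rap1a* and left 3 called higher. Leaving out tamoxifen library 1 ended that of *Dok2*, and leaving out tamoxifen library 2 those of *Akt2*, *Dok2*, *Pik3r2*, *Iqgap1*, *Nck1* and *Rap1a*, which left 2 called higher and 5 lower.

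FOXO1 is a transcription factor held back by active Tie2, and it is known to drive *Angpt2* in endothelium. Among 12 FOXO factors and endothelial genes linked to FOXO, 3 were called higher (25%) and 5 lower (41.7%), with a median log2 fold change of -0.94. All genes tested gave 28.6% and 16%. *Foxo1* had 12918 and 13065 normalized counts in the controls against 3879 and 3521 after tamoxifen (log2 fold change -1.81, SE 0.16). *Foxo3* had 5138 and 5229 against 5755 and 4885 and overlapped between groups. *Foxo6* was higher with a log2 fold change of 2.68, from 38.4 and 88.9 to 347 and 416 normalized counts. *Irs2*, an adaptor of insulin signalling, and *Cited2*, a transcriptional regulator, were higher by 2.99 and 1.13. *Klf2* and *Nos3*, genes of quiescent endothelium under flow, had log2 fold changes of -2.34 and -2.86. *Esm1* and *Aplnr*, genes of growing and venous vessels, had log2 fold changes of -1.24 and -1.34. *Apln* and *Foxo4* had log2 fold changes of -0.996 and -0.874 and were not called. The calls of *Esm1* and *Aplnr* were lost with equal totals and that of *Cited2* with quantile normalization or without control library 1. Without tamoxifen library 1, *Cited2*, *Foxo6* and *Esm1* were no longer called, and without tamoxifen library 2 *Aplnr* was lost as well, which left 1 called higher in either case and 3 lower in the latter.

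Among the relatives of VE-PTP and the proteins it acts on, 8 of 9 genes were listed and tested, *Ptprh* having no row. Of these 8, 1 was called higher (12.5%) and 5 lower (62.5%), with a median log2 fold change of -1.56. All genes tested gave 28.6% and 16%. *Cdh5*, the gene of VE-cadherin, had 79151 and 86328 normalized counts in the controls against 15585 and 8508 after tamoxifen (log2 fold change -2.84). *Kdr*, the VEGF receptor that VE-PTP also restrains and which like *Cdh5* is also among the endothelial markers, had 155506 and 147388 against 28812 and 17596 (log2 fold change -2.75). The junction partners *Jup* and *Ctnnb1* had log2 fold changes of -1.75 and -1.37, and *Plcg1* one of -1.92. Of the related phosphatases, *Ptprj* had a log2 fold change of -0.48 and was not called, *Ptprq* had 17.8, 20.03, 19.5 and 5.75 normalized counts in control libraries 1 and 2 and tamoxifen libraries 1 and 2 and overlapped between groups, and *Ptpro* had 17.8 and 52.6 against 345 and 487 normalized counts (log2 fold change 3.69). *Ptprb* was therefore lower while *Ptpro* was higher, though the call of *Ptpro* was lost without tamoxifen library 1 or without tamoxifen library 2, which left 0 called higher. The call of *Ctnnb1* was lost with equal totals and with quantile normalization.

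The angiopoietin-like genes encode secreted proteins that resemble angiopoietins but do not bind Tie receptors. Of 7 tested, 1 was called higher (14.3%) and 1 lower (14.3%), against 28.6% and 16% of all genes tested, with a median log2 fold change of 0.36. *Angptl2* had 270 and 491 normalized counts in the controls against 4524 and 4037 after tamoxifen (log2 fold change 3.55). *Angptl8* had 82.2 and 87.6 against 19.5 and 25.9 (log2 fold change -1.87), and its call was lost without tamoxifen library 1 or without tamoxifen library 2. *Angptl4*, a gene of lipid metabolism and hypoxia, had 2105 and 1815 against 2639 and 1883 normalized counts and overlapped between groups. The 5 lists were chosen with earlier results of these data known, and they hold *Esam*, *Cdh5* and *Kdr*, which are also endothelial markers. Over the 66 genes tested of these 5 lists, 14 were called higher (21.2%) and 21 lower (31.8%), with a median log2 fold change of -0.60, against 28.6%, 16% and 0.05 for all genes tested. Without tamoxifen library 1, 9 were called higher, and without tamoxifen library 2, 6. With equal totals 12 were called lower.

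**Figure D3:**
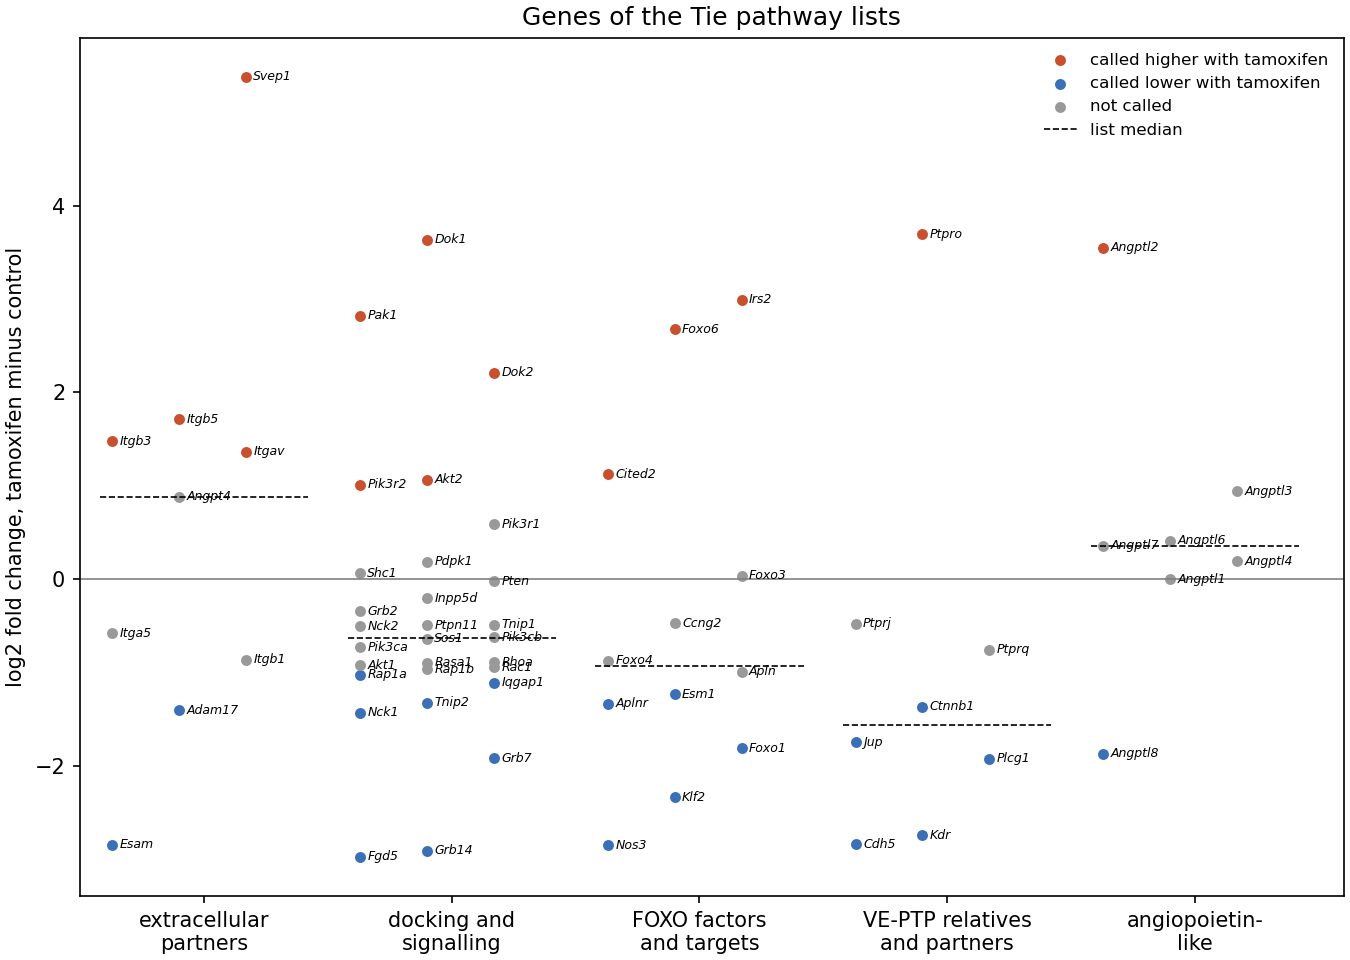
Log2 fold change, tamoxifen minus control (vertical axis), of 65 of the 66 tested genes of 5 Tie pathway lists (horizontal axis). Each point is a gene, red where called higher, blue where called lower and grey where not called, and dashed lines are list medians. *Svep1* was highest at 5.38 and *Fgd5* lowest at -2.98.

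Cells other than endothelium can supply some of these messages, so markers of such cells are given beside the members. Of all genes tested, 28.6% were called higher and 16% lower, and each count of markers called below stands beside these shares. The sort in the study's methods is for cells with CD31 and without CD45, whereas the labels name tdTomato+ cells. How far other cells were removed was not tested. *Angpt1* is known from pericytes, smooth muscle, fibroblasts, astrocytes and megakaryocytes. Of 8 pericyte markers 3 were called higher, with sums of 32045, 59262, 40536 and 80324 normalized counts in control libraries 1 and 2 and tamoxifen libraries 1 and 2, and *Rgs5* the most abundant. Of 6 smooth muscle markers 1 was called higher, and the sums were 2367, 4816, 3448 and 6029, led by *Myl9*. All 6 fibroblast markers were called higher, with sums of 2257, 3213, 69745 and 59759, led by *Col1a1*. All 6 astrocyte markers were called higher, with sums of 27117, 31486, 134790 and 285980, led by *Slc1a2*. Of 6 megakaryocyte markers 5 had a row and all 5 were called higher, with sums of 273, 556, 2615 and 2068, led by *Itga2b*.

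*Tek* is also known from some macrophages and from hematopoietic stem cells. Of 6 markers of Tie2-expressing and border macrophages, 4 were called higher and 2 lower. Their sums were 27525, 26276, 7911 and 4988, led by *Stab1*, which endothelium also expresses, while *Mrc1* had 50.7, 47.6, 703 and 531 normalized counts. Of 6 hematopoietic stem cell markers 2 were called higher and 3 lower, with sums of 72793, 73464, 24713 and 16802, led by *Cd34*, another gene of endothelium. Lymphatic endothelium, which uses the same receptors, had 2 of 4 markers higher and 2 lower, with sums of 22217, 24502, 7362 and 6368, led by *Flt4*. *Flt4* alone had 21954, 24059, 4195 and 2395 of these sums and was called lower, as was *Lyve1*, while *Prox1* and *Pdpn* were called higher. *Tek* was lower, as were *Stab1* and *Lyve1*, while *Mrc1*, *Cd163*, *F13a1* and *Pf4* were the 4 macrophage markers called higher.

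Markers of further cell types differed as well. Of 6 markers each, those called higher were 6 for neutrophils, 6 for erythrocytes, 6 for pluripotent cells, 6 for the cell cycle, 5 for oligodendrocytes, 4 for neurons, 4 for oligodendrocyte precursors and 3 for microglia and macrophages. The other markers of these lists were not called, except *Gpr17* of the oligodendrocyte precursor list, which was called lower with 1666 and 926 normalized counts in the controls against 126 and 129 after tamoxifen. In the same order of libraries, the sums were 242, 194, 97216 and 72571 for neutrophils, led by *S100a9*, and 18082, 36469, 161494 and 103723 for erythrocytes, led by *Hbb-bs*. They were 64.4, 83.9, 42840 and 33526 for pluripotent cells, led by *Tdgf1*, and 1027, 1198, 76290 and 74012 for the cell cycle, led by *Mki67*. They were 1103, 1386, 5345 and 5878 for oligodendrocytes, led by *Cnp*, and 1614, 2019, 13475 and 22340 for neurons, led by *Map2*. They were 4765, 6434, 18935 and 47373 for oligodendrocyte precursors, led by *Ptprz1*, and 1282, 2452, 3160 and 3061 for microglia and macrophages, led by *Csf1r*. No marker of any list with a row was at or below 3 reads in both libraries of a group. The part of these cells in the values of *Angpt1*, *Tek* and the other members was not tested.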

How the data were processed

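Alignment was to GRCm39 with STAR 2.7.10a, and the authors normalized with DESeq2 1.36.0 and left out genes with low counts; the annotation release, strand setting and low-count limit were not stated. Deposited was a normalized signal for each gene, the read count divided by 1 factor per library, and 100% of values came out as whole reads (tolerance 0.01). The columns carry letters and numbers: C was taken to mean control and A tamoxifen, although the labels hold no A. Values of log2(normalized count + 1) were fitted with limma 3.58.1 in R 4.3.3 (lmFit, eBayes with a trend) for genes whose mean was 10 or more, with Benjamini-Hochberg adjustment over 20485 genes. On simulated data limma called 95 of 100 genes changed by 2 on the log2 scale and 100 of 100 changed by 3. Those data held 100 changed genes of each size among 20484 tested, whereas 44.7% of 20485 genes were called in these libraries. Recovery at the spread of these libraries was not tested. The alternatives tried were no filter, a filter at 100, pseudocounts of 0.5 and 5, equal totals, quantile normalization, no trend, a replicate block, edgeR 4.0.16 and DESeq2 1.42.0 on the recovered reads, and each library left out. Lengths came from GENCODE M39, matched by symbol for 24364 of 24873 genes. Named genes are the members, the genes of the pathway and marker lists, and the 3 genes most like each member. Also named are *Mgp*, the most abundant gene of each library, genes that overlap a member, and *Mcph1*. The last was added after the overlap with *Angpt2* was seen. The members and lists were chosen with earlier results of these data known. For 1 gene of the docking and signalling list, which is in the list's counts, the values are not reported here.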

Additional observations from a re-analysis of the deposited data

How the results depend on the processing

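*Tek*, *Tie1*, *Ptprb* and *Angpt2* kept their direction and their call under all 14 alternatives. Their log2 fold changes ranged from -3.76 to -2.49 for *Tek* (limma, edgeR or DESeq2, adjusted p up to 0.0306), from -3.43 to -2.22 for *Tie1* (up to 0.0306), from -3.67 to -2.16 for *Ptprb* (up to 0.0402) and from -2.95 to -2.25 for *Angpt2* (up to 0.0213). *Angpt1* ranged from 2.60 to 4.07 and kept its call in 12 of 14, being lost without tamoxifen library 1 (3.53) and without tamoxifen library 2 (3.70), where 1 tamoxifen library is left and is assumed to vary like the controls; without a control library it was 3.31 to 3.91. Over all genes, 5867 were called higher and 3284 lower (64.1% of calls higher). With a filter at 100, which tests fewer genes, 3540 were higher. With equal totals 7206 were higher and 1838 lower (79.7%), and with quantile normalization 4615 and 5509 (45.6%); the cause was not tested. With a library left out, those higher ranged from 2553 to 6163 and those lower from 1594 to 3537. Of the 66 pathway genes, 6 to 14 were then called higher, and with equal totals 12 were called lower. edgeR on recovered reads called 5864 genes higher and 3377 lower, and DESeq2 5694 and 3045. No pairing of same-numbered libraries was stated. The correlation of their deviations was 0.025 over 20485 genes, from 1 difference in each group, and cannot decide whether they share a batch. With the replicate block 6064 genes were called higher and 3461 lower, with all 5 members still called. Among the members, depth limits *Angpt1* in the control libraries, at 19 and 32 reads. Replicates are pools of mice, and 2 libraries a group leave the spread poorly known.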
